A study of Mus musculus with 2 samples.

Results

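The genes of class I antigen presentation were followed across the cell types of the mouse pancreatic islet: 10 of the 27998 genes counted in each library. They were taken by gene symbol and comprise 6 heavy chain genes (H2-K1, H2-D1, H2-Q4, H2-Q6, H2-Q7 and H2-T23), the light chain gene B2m, the peptide transporter subunits Tap1 and Tap2, and Tapbp, which encodes tapasin. All 10 were detected in both libraries. The islets came from C57BL/6 mice at postnatal day 70. One library was from wild type mice and the other from transgenic mice in which miR-503 is expressed specifically in beta cells. Trypsin and EDTA freed the cells, whose RNA was tagged at its 3′ end in droplets (Chromium, version 2). The sources used here do not give the transgene's promoter, the number of mice or their sex.

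Class I molecules carry peptides from inside a cell to its surface, where T cells read them. A heavy chain folds around the peptide and pairs with beta-2-microglobulin, the product of B2m; the peptides are pumped into the endoplasmic reticulum by the TAP transporter and loaded with the help of tapasin. In autoimmune diabetes, CD8 T cells recognise beta cells through these molecules, and interferons are known to raise the expression of the whole set. The C57BL/6 strain carries the b haplotype of the mouse major histocompatibility complex, so that H2-K1 and H2-D1 encode the classical molecules Kb and Db.

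In the annotation (GRCm38, GENCODE M21) 9 of the 10 genes lie on chromosome 17 and all are protein coding. From Tapbp (33915899 to 33929292, plus strand) they run through H2-K1 (33996017 to 34000347, minus strand), Tap1 (34187553 to 34197225), Tap2 (34203527 to 34216321), H2-D1 (35262730 to 35267499), H2-Q4 (35379617 to 35385290), H2-Q6 (35424850 to 35430055) and H2-Q7 (35439155 to 35443773), all on the plus strand, to H2-T23 (36029773 to 36032855, minus strand). B2m lies apart, on chromosome 2 (122147686 to 122153083, plus strand). The 250 bases before the transcription start are shown for H2-K1, the member with the most UMIs in beta cells, for H2-Q4 and H2-Q6, the members furthest below wild type in transgenic beta cells, and for B2m, the light chain. The sequences are from RefSeq (GRCm38.p6), 5′ to 3′ in the direction of the gene, and capitals mark the motif matches described after them.
H2-K1 (chr17:34000348-34000597, minus strand): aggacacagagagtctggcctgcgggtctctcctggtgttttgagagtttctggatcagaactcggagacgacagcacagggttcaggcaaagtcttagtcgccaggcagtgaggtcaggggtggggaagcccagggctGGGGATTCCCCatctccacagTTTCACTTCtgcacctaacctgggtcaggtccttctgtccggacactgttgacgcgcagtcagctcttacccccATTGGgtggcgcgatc
H2-Q4 (chr17:35379367-35379616, plus strand): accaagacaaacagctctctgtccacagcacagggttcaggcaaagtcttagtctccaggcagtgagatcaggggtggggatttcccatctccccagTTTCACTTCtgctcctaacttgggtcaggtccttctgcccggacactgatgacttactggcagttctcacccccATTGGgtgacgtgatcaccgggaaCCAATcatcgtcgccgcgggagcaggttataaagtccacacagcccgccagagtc
H2-Q6 (chr17:35424600-35424849, plus strand): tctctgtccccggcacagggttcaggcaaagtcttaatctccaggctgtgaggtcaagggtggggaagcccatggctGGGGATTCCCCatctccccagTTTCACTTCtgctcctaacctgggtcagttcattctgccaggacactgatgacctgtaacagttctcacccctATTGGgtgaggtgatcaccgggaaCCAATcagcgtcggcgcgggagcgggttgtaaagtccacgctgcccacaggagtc
B2m (chr2:122147437-122147686, plus strand): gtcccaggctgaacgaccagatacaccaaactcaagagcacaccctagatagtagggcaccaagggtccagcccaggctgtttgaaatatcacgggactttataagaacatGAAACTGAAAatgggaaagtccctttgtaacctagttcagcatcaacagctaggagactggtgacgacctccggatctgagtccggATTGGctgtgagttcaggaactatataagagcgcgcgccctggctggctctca
Promoter entries matched 9 of the 10 genes, H2-K1 with 2 starts. The motifs were searched on both strands, and a match is a description of the sequence only. The kappa B site was searched only as an exact run (G, ATT and C in capitals for H2-K1 and H2-Q6). That exact run is in 10 of 32851 promoters (0.0304%) and precedes H2-K1 at both starts, H2-D1 and H2-Q6. Similar runs before H2-Q4 (in small letters in its line) and H2-Q7 were not counted. The count therefore does not show that other promoters lack a kappa B site. The spaced interferon half-sites GAANNGAAA, in 6.31% of all promoters, precede H2-K1, H2-D1, H2-Q4, H2-Q6 and H2-Q7, in each on the minus strand (TTTCACTTC in the printed lines). Where both motifs occur, 10 bases separate them. B2m (bases -139 to -130) and H2-T23 (-124 to -115) instead hold the full interferon-stimulated response element, found in 2.98% of promoters. The cAMP response element TGACGTCA (1.55% of promoters) was matched in none of the 9 genes, and CCAAT (33.8%) in all 9. The 2 interferon motifs share letters and could overlap, but none of the 9 genes held both.

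The deposited matrices held 4540 wild type and 4158 transgenic barcodes with 104677537 and 109243270 UMIs (unique molecular identifiers, 1 per captured RNA molecule), and 25 barcode sequences occurred in both. After filters 4339 and 3977 cells remained. Cells were classed by hormone content and by markers. Beta cells had at least 25% of their UMIs from Ins1 and Ins2 (3169 and 2583 cells), alpha cells at least 3% from Gcg (398 and 576), delta cells at least 2% from Sst (77 and 98) and gamma cells at least 3% from Ppy (114 and 101). Endothelial cells (103 and 24) and immune cells (94 and 144) were taken by 12 endothelial and 8 immune markers, which therefore give no check of these classes. The immune cells comprised 65 and 40 macrophages, 20 and 54 B cells, 1 and 12 T cells, and 8 and 38 cells not placed in 1 of these. Of markers that did not define the classes, 5 of 5 for beta, 4 of 7 for alpha, 4 of 5 for delta and 2 of 3 for gamma cells were highest in their own class, although Mafa, a beta cell factor, was nearly undetected in beta cells. The insulin cut has few cells near it in the transgenic library: between 20% and 25% insulin lay 66 wild type and 7 transgenic cells, and between 25% and 30% lay 88 and 4. Xist gave 8 UMIs in wild type and 2940 in transgenic beta cells, so the libraries differ in the sex of their mice. With 1 library per genotype there is no replicate error and no test. Intervals are 95% counting intervals, which cover counting error only, and genotype, mice and library cannot be told apart.

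Levels are given as CPM, here the UMIs of a gene per 1000000 UMIs outside 7 hormone genes (Ins1, Ins2, Iapp, Gcg, Sst, Ppy and Pyy). The hormones filled 56.3% of beta cell UMIs in the wild type and 65.0% in the transgenic library, so a scale over all UMIs would lower every other gene in beta cells. This 3 prime chemistry gives 1 tag per molecule, so no division by length was made. Capture at different 3′ ends may still differ, and ratios of 1 gene to another are compared only between cell classes.

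The endocrine cells carried heavy chain RNA within a few fold of the immune level, but far less B2m RNA. Heavy chain genes summed to 1087 CPM in wild type and 957 in transgenic beta cells. The sums were 1034 and 1166 in alpha, 1196 and 1250 in delta, and 1055 and 1130 in gamma cells. Endothelial cells reached 2601 and 4489, and immune cells 3840 and 4191. The 4 endocrine classes thus lay close together and below both other classes in each library.

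B2m had a much wider step. Its level was 138 (interval 134 to 142) in wild type and 164 (160 to 169) in transgenic beta cells, against 2806 and 4379 in endothelial and 4560 and 4347 in immune cells. Alpha cells had 123 and 158, delta cells 132 and 168, and gamma cells 98.8 and 140. Endothelial cells therefore exceeded beta cells 20.3-fold and 26.7-fold, and immune cells exceeded them 33.0-fold and 26.5-fold. For every 100 heavy chain UMIs, beta cells held 12.7 (12.4 to 13.1) and 17.2 (16.6 to 17.7) B2m UMIs, alpha cells 11.9 and 13.6, delta cells 11.0 and 13.4, and gamma cells 9.37 and 12.4. The same ratio was 108 and 97.5 in endothelial cells, 127 and 113 in macrophages and 92.7 and 99.5 in B cells. The ratio was thus far lower in all 4 endocrine classes than in endothelial and immune cells, in both libraries.

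**Figure D1:**
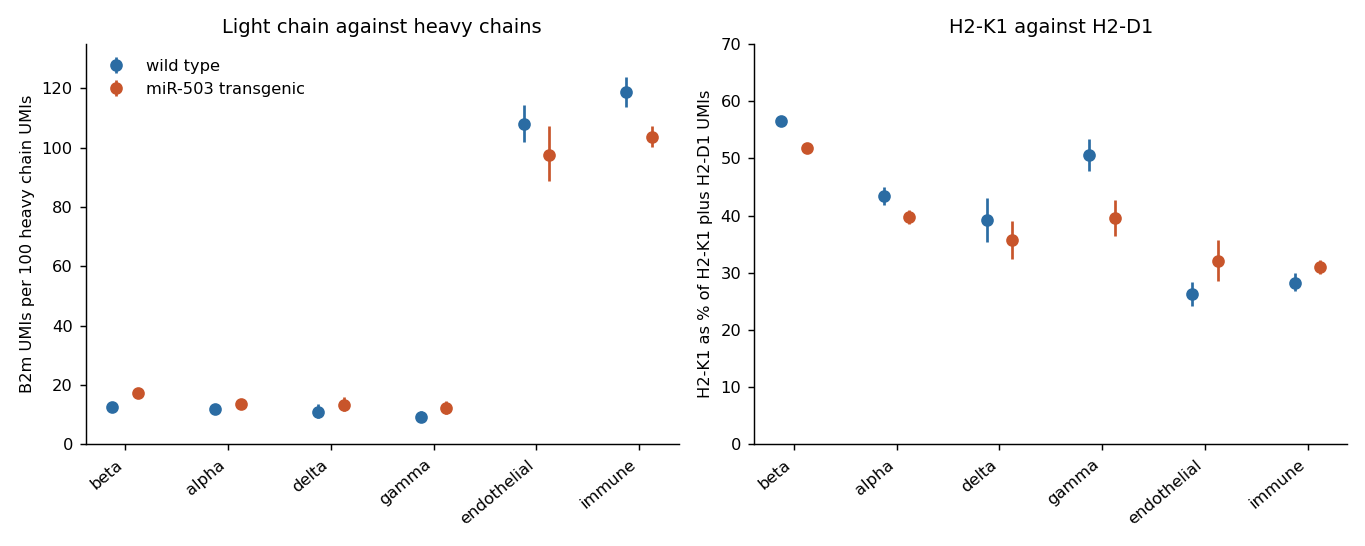
B2m UMIs per 100 UMIs of the 6 heavy chain genes (left) and H2-K1 as a percentage of H2-K1 plus H2-D1 UMIs (right), by cell class; points are the summed cells of a library and bars are 95% counting intervals. B2m is between 9.37 and 17.2 in the endocrine classes and between 97.5 and 119 in endothelial and immune cells, and the H2-K1 share is highest in beta cells.

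Cd74 (the class II invariant chain) and Plvap (an endothelial gene) were also counted in beta cells, at 102 and 181 and at 14.4 and 6.05 CPM, against 38675 and 24469 Cd74 in immune and 3479 and 3096 Plvap in endothelial cells. In beta cells 136 and 90.7 B2m UMIs accompanied every 100 Cd74 UMIs, against 11.8 and 17.8 in immune cells. Per 100 Plvap UMIs they were 959 and 2714, against 80.7 and 141 in endothelial cells. At the immune and endothelial ratios, these markers would come with 23.6 of the 138 CPM of B2m in wild type and 40.7 of the 164 CPM in transgenic beta cells, which leaves 115 and 124 CPM.

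The balance of the classical heavy chains also shifted between classes. H2-K1 stood at 511 and 426 CPM in beta, 357 and 372 in alpha, 365 and 361 in delta, and 439 and 374 in gamma cells, so that in each library beta cells were the highest of the endocrine classes. H2-D1 ran the other way, at 394 and 395 in beta, 429 and 571 in gamma, 465 and 564 in alpha, and 564 and 651 in delta cells. H2-K1 made up 56.5% (55.9 to 57.0) and 51.9% (51.2 to 52.5) of the pair in beta cells. In gamma cells it made up 50.6% and 39.6%, in alpha cells 43.4% and 39.8%, and in delta cells 39.3% and 35.7%. Endothelial cells (26.2% and 32.1%) and immune cells (28.3% and 31.1%) held mainly H2-D1. The transgenic share was below the wild type share in all 4 endocrine classes and above it in endothelial and immune cells, although the intervals of the libraries overlapped in delta and immune cells. Within the immune cells, macrophages were level (28.4% and 28.1%), while B cells had 27.2% and 34.6%. The transgenic endothelial share rests on 24 cells.

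Among the non-classical heavy chains, H2-T23 encodes Qa-1, a ligand of NKG2A receptors on natural killer and T cells. It was at 41.1 and 37.6 CPM in beta cells, 95.6 and 80.3 in alpha, 117 and 103 in delta and 80.4 and 69.4 in gamma cells. Beta cells were the lowest class of all, and alpha cells exceeded them 2.32-fold and 2.14-fold and delta cells 2.85-fold and 2.75-fold. H2-Q4, whose product is little studied, ranged from 71.8 CPM in transgenic beta cells to 331 in transgenic endothelial cells. H2-Q7, which encodes Qa-2, was rare in endocrine cells (10.4 and 10.2 in beta, 3 to 36 UMIs in all in each other endocrine class and library) and was 132 and 212 CPM in immune cells. H2-Q6 was at 26.1 and 16.0 in beta and 133 and 114 in immune cells. H2-Q6 is the least certain member: 24.4% of the 98-base windows in the last 500 bases of its transcripts also occur in another gene, mostly H2-Q7. That share was 10.4% for H2-T23, 6.95% for H2-Q4, 3.27% for H2-Q7 and 0 for the others.

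The loading genes followed the same step at lower levels. Tap1, the inducible transporter subunit, was at 11.2 and 10.6 CPM in beta, 12.6 and 7.97 in alpha, and 139 and 141 in immune cells. Tap2 had 802 and 586 UMIs in beta cells and was highest in endothelial cells, at 3.94-fold and 7.09-fold the beta level (90.5 and 145 CPM). Tapbp was the most expressed of the loading genes in each endocrine class, with 117 and 97.5 in beta, 105 and 142 in alpha, and 104 and 147 in gamma cells, and its step was the smallest: 264 and 301 in endothelial and 242 and 188 in immune cells. Delta cells held 6 and 7 Tap1 UMIs in all, too few to place them against the other endocrine classes.

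**Figure D2:**
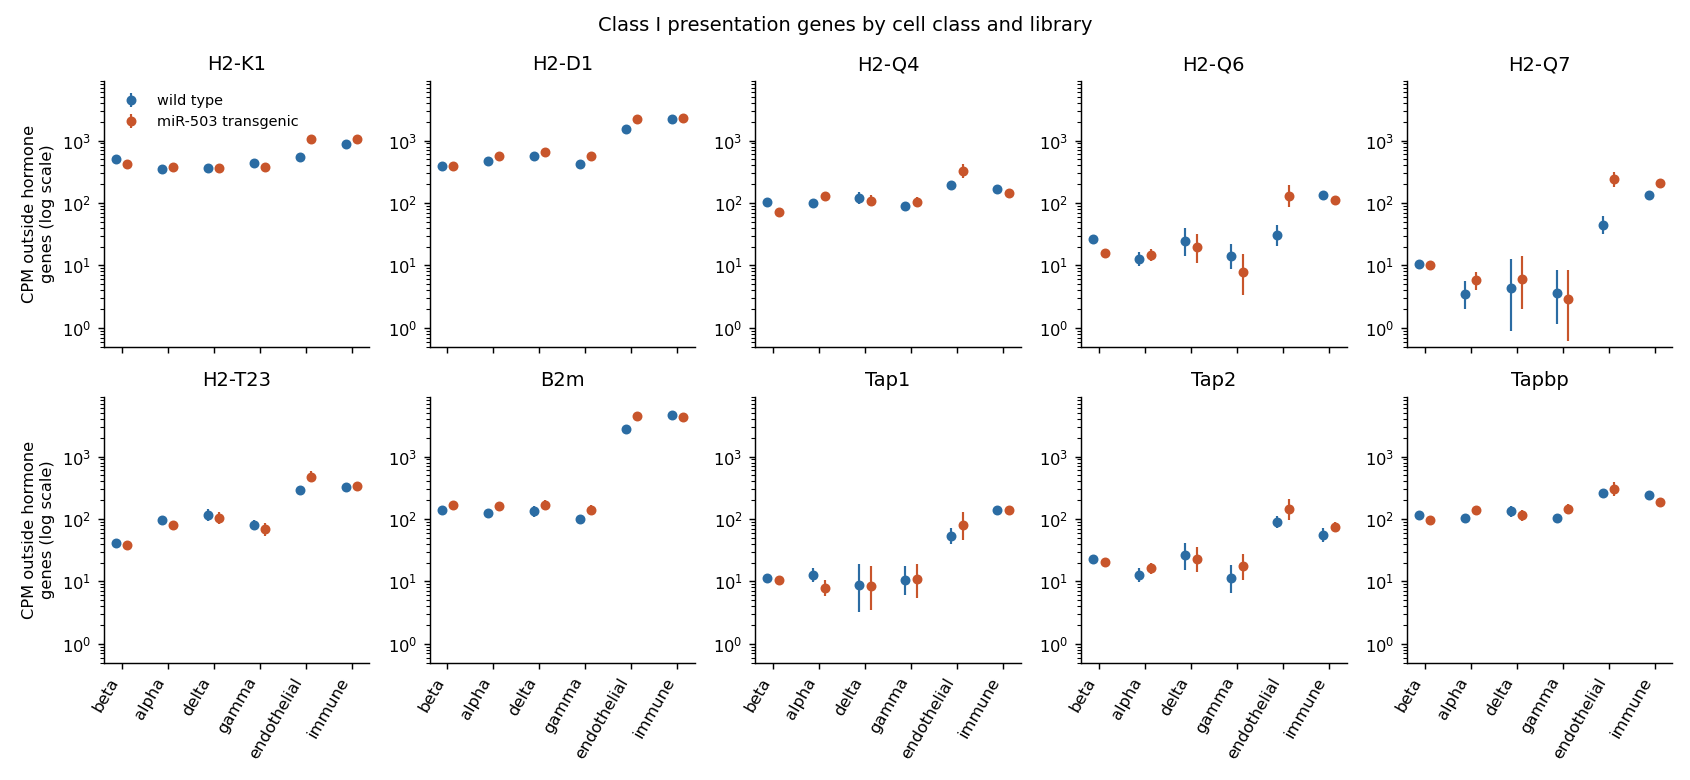
Level of each member (CPM, log axis) by cell class, with 95% Poisson intervals; each point is the summed cells of a class in 1 library. B2m has the largest step from beta to endothelial cells (20.3-fold and 26.7-fold) and to immune cells (33.0-fold and 26.5-fold).

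By a difference of 2-fold or more from beta cells in both libraries, H2-T23 was the 1 member higher in alpha cells (5.08% of 13160 genes tested were higher there) and in delta cells (6.66%), with none lower (13.7% and 8.93%). None was higher in gamma cells (4.99%), where H2-Q7 was lower (7.08% of genes were lower) on 5 and 3 UMIs. In endothelial cells 7 of the 10 were higher and none lower, beside 12.9% of all genes higher and 31.3% lower. The 7 were H2-D1, H2-Q7, H2-T23, B2m, Tap1, Tap2 and Tapbp. In immune cells 7 were also higher and none lower, beside 10.3% and 43.5%, with H2-Q6 in place of Tapbp. The median member was 1.96 and 2.87 log2 units above beta cells in endothelial and 2.42 and 2.70 in immune cells, while the median of all genes was -0.57 and -0.64, and -1.11 and -1.02. Macrophages had 8 members higher (8.07% of all genes) and B cells 7 (9.56%), with none lower (50.6% and 44.2%). On a scale over all UMIs the heavy chains of alpha cells stood 0.66 and 1.31 log2 units above beta cells, so the near equality of the endocrine classes holds only with the hormones set aside.

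Detection in single cells followed the mean counts, which were 5.63 and 4.72 UMIs per beta cell for H2-K1 and 1.52 and 1.82 for B2m. Before thinning, 97.0% of wild type and 97.1% of transgenic beta cells had an H2-K1 UMI, and 69.6% and 76.4% had a B2m UMI. With each cell thinned to 2000 UMIs outside the hormone genes, the B2m share was 22.8% (21.3 to 24.3) and 28.8% (27.1 to 30.6), against 98.1% and 100% of endothelial cells. Cd74, an immune transcript, had a UMI in 18.9% and 29.2% of the thinned beta cells, C1qb in 2.25% and 1.13%, and Ptprc in 0.0950% and 0.621%. The B2m share of beta cells was thus little above or level with that of Cd74, and it is not read here as a share of expressing cells. Median depth outside the hormones was 10348 and 10227 UMIs in beta and 7915 and 8065 in endothelial cells. Across thinned beta cells B2m and heavy chain UMIs had a Pearson correlation of -0.01 in wild type (3158 cells) and 0.01 in transgenic cells (2577), and the Fano factor of the heavy chain sum was 1.24 and 1.15, where 1 is expected from sampling alone. The shallow counts limit any such correlation. The lower and upper quartiles of the heavy chain level per cell were 758 and 1343 CPM in wild type and 665 and 1197 CPM in transgenic beta cells.

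Summed over all beta cells, the transgenic library had less heavy chain and loading RNA and slightly more B2m, and the loading difference was not present at every insulin share (given with the insulin bins). The log2 ratio of transgenic to wild type was -0.18 (-0.21 to -0.16) for the heavy chain sum, -0.23 (-0.29 to -0.17) for the sum of Tap1, Tap2 and Tapbp, and 0.25 (0.19 to 0.31) for B2m. The B2m ratio is -0.072 on a scale over all UMIs, a change of scale that moves the median of all genes in beta cells by -0.32. With the B2m that Cd74 and Plvap would bring subtracted, it was 0.11. The 6 class II genes tested were each higher by a ratio of 5 to 4 or more in transgenic beta cells (13.1% of all genes), with a median of 0.82. In immune cells 5 of 6 were lower by that ratio (25.1%) and none higher (31.8%), with a median of -0.59. In endothelial cells 4 of 4 were higher (21.7%). The part of immune RNA in the B2m ratio beyond these values was not tested.

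Within the heavy chains the differences were uneven. H2-Q4 had 3609 UMIs (103 CPM) in wild type and 2052 (71.8) in transgenic beta cells, a log2 ratio of -0.53 (-0.61 to -0.45). H2-Q6 had 911 (26.1) and 457 (16.0), a ratio of -0.71 (-0.87 to -0.55). H2-K1 was lower by less, with 17829 and 12185 UMIs and a ratio of -0.26 (-0.30 to -0.23). Over all beta cells H2-D1 was level: 13744 and 11304 UMIs gave 0.00 (-0.03 to 0.04). H2-T23 was at -0.13 and Tap2 at -0.17, Tapbp was at -0.26 (-0.33 to -0.19), and the intervals of H2-Q7 (-0.03) and Tap1 (-0.09) included 0. By a ratio of 5 to 4 or more, H2-Q4 and H2-Q6 were the 2 members lower, beside 12.6% of 12846 genes, and none was higher, beside 13.1%. The median of the 10 was -0.15 and that of all genes -0.01. On the scale over all UMIs 8 of the 10 were lower by that ratio. That scale moves every gene in beta cells by -0.32, which is close to the ratio itself. The matching share of all genes is not given here, and the 12.6% does not apply to it.

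**Figure D3:**
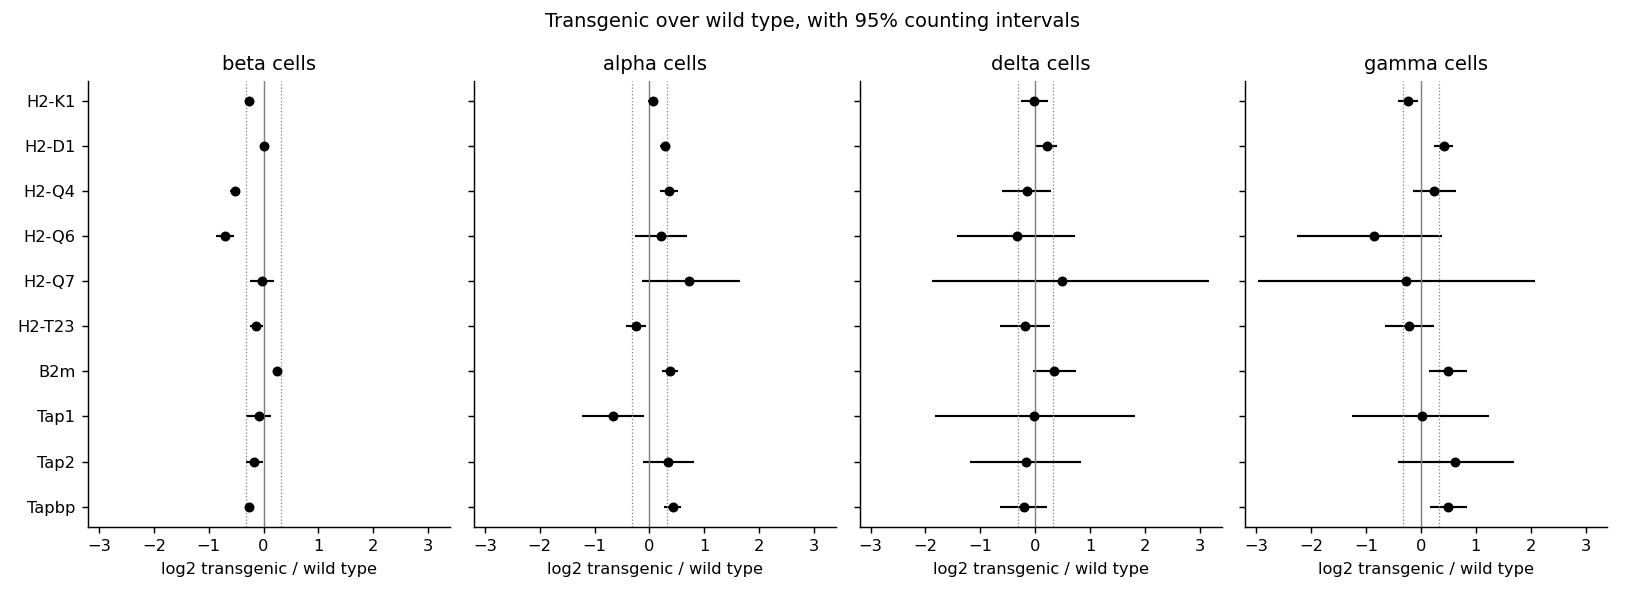
Log2 ratio of transgenic to wild type for each member in the 4 endocrine classes, with 95% counting intervals; the solid line is 0 and the dotted lines are a ratio of 5 to 4. In beta cells H2-Q4 and H2-Q6 lie below the lower line, while in alpha cells H2-Q4, H2-Q7, B2m, Tap2 and Tapbp lie above the upper line.

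The insulin content of the beta cells differed between the libraries, and the members were therefore also read at matched insulin share. Insulin was 50.9% of the UMIs of wild type and 60.3% of those of transgenic beta cells. H2-Q4 fell off along this axis within wild type cells, from 119 CPM at 25 to 40% insulin through 107 and 104 to 68.4 at 60 to 70%. In transgenic cells it went from 96.6 through 85.6 and 73.0 to 67.9. At 60 to 70% insulin (361 and 1229 cells) the genotypes did not separate, with a log2 ratio of -0.01 (-0.21 to 0.19), whereas at 50 to 60% (1273 and 924 cells) it was -0.51 (-0.64 to -0.38). H2-Q6 likewise went from 35.6 to 12.7 in wild type cells and met the transgenic level of 12.7 at 60 to 70%. Tapbp was at 91.7 and 91.1 there. The loading sum, lower over all beta cells, had ratios of -0.25, 0.09, -0.23 and 0.01 in the first 4 bins, so it was not lower at 40 to 50% or at 60 to 70% insulin. H2-K1 had no such slope and was lower in transgenic cells in each of the 5 bins, with log2 ratios of -0.34, -0.16, -0.29, -0.36 and -0.31, the last on only 18 wild type cells and with an interval that includes 0. H2-T23 was lower in transgenic cells at 60 to 70% insulin, at 57.5 and 39.4 CPM (-0.54, -0.77 to -0.31), and at 50 to 60% (-0.28, -0.48 to -0.09). Its intervals included 0 elsewhere, with -0.26 (-0.58 to 0.05) at 40 to 50% and 0.24 (-0.39 to 0.81) at 25 to 40%. Above 70% it was at 0.72 (-0.70 to 2.64), on 4 wild type UMIs. Within wild type cells H2-T23 went from 29.8 CPM at 25 to 40% through 41.0 and 42.1 to the 57.5. H2-D1 was also lower in transgenic cells at 60 to 70% insulin, at -0.13 (-0.21 to -0.05). B2m increased with insulin share in wild type cells up to 60 to 70%, from 116 to 170 CPM. In that bin its genotype ratio was -0.02 (-0.15 to 0.11). B2m was higher in transgenic cells at 40 to 50% (0.23, 0.08 to 0.38) and at 50 to 60% insulin (0.16, 0.06 to 0.25). At 25 to 40% its ratio was 0.28 (-0.02 to 0.57), and above 70% it was 0.50 (-0.21 to 1.30), on 17 wild type UMIs. The B2m difference was thus absent only at 60 to 70% insulin by point value.

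**Figure D4:**
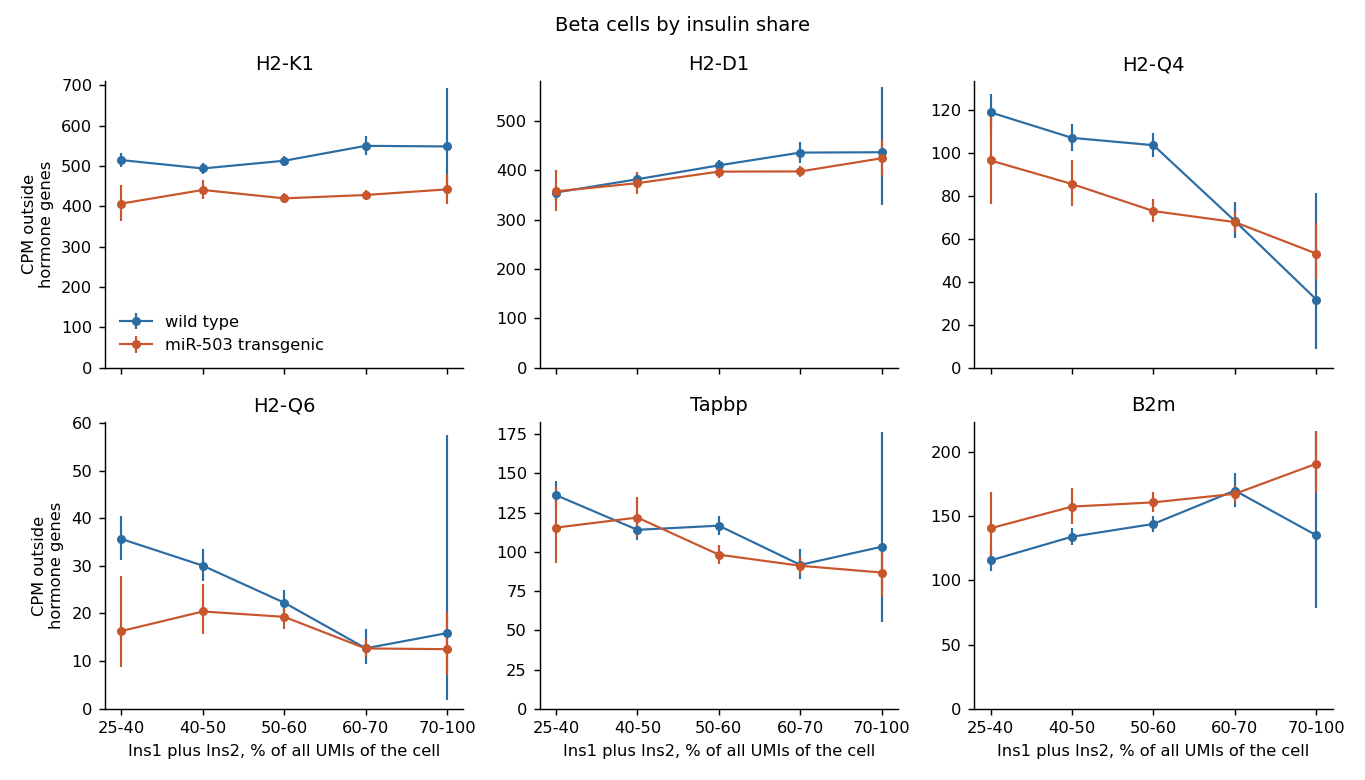
Levels of 6 members in beta cells grouped by the share of Ins1 plus Ins2 UMIs, with 95% Poisson intervals; lines join the bins of a library. The libraries meet at 60 to 70% insulin for H2-Q4, H2-Q6, Tapbp and B2m and stay apart for H2-K1, and less so for H2-D1; the last bin holds 18 wild type cells.

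The libraries also differed in sex and mitochondrial share, which cannot be told apart from genotype. In cells with a Y-linked and no Xist UMI the beta heavy chain ratio was -0.19, and among transgenic beta cells those with Xist (179) and those with Y-linked UMIs (1817) had 982 and 949 CPM of heavy chains (log2 0.05, -0.02 to 0.12). In transgenic alpha cells the same split gave 1039 CPM with Xist (55 cells) and 1202 with Y-linked UMIs (362 cells), a log2 difference of -0.21 (-0.33 to -0.09). In alpha cells with a Y-linked and no Xist UMI the heavy chain genotype ratio was 0.24. The median beta cell had 3.23% mitochondrial UMIs in the wild type and 2.03% in the transgenic library, and with cells of at most 5% the beta heavy chain ratio was -0.21.

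Alpha cells, in which the transgene is not meant to be expressed, had higher values for all 3 groups of genes. The heavy chain sum was 0.17 log2 units higher in transgenic alpha cells (0.12 to 0.23), the loading sum 0.34 (0.20 to 0.49) and B2m 0.37 (0.22 to 0.52). H2-D1 went from 465 to 564 CPM (0.28, 0.20 to 0.36) while H2-K1 was at 357 and 372 (0.06, -0.03 to 0.15). H2-Q4 went from 101 to 129 (0.36, 0.19 to 0.52) and Tapbp from 105 to 142 (0.43, 0.27 to 0.59). H2-T23 was lower (-0.25, -0.44 to -0.07), as was Tap1 (-0.66, -1.23 to -0.10) on 62 and 50 UMIs. By a ratio of 5 to 4, 5 members were higher (beside 13.5% of 9818 genes) and 1, Tap1, lower (12.2%). H2-Q7 and Tap2 are among the 5 with intervals that include 0. The 5 class II genes tested were also each higher by that ratio in transgenic alpha cells (13.5% of all genes), with a median of 0.76 and Cd74 at 80.7 and 131 CPM. With B2m at the immune and endothelial ratios subtracted, the alpha B2m ratio was 0.32, just under the ratio of 5 to 4, and the part of immune RNA beyond this was not tested. Median values were 0.31 for the members and 0.01 for all genes.

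In the smaller endocrine classes only the 6 members with at least 50 UMIs were compared. In delta cells B2m was higher by that ratio (15.6% of 4677 genes), at 0.35 (-0.04 to 0.75), and none was lower (14.1%). In gamma cells H2-D1 (0.41), B2m (0.50) and Tapbp (0.50) were higher (14.6% of 6137 genes) and none was lower (18.7%), but on a scale over all UMIs, which moves the gamma median by -0.21, none was higher and 2, H2-K1 (-0.44) and H2-T23 (-0.42), were lower. The share of all genes on that second scale is not given here. The H2-D1 ratio exceeded that of H2-K1 in each of the 4 endocrine classes, by point value.

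Endothelial cells had the widest spread and the fewest transgenic cells. By sums, 9 of the 10 members were higher by 5 to 4 in the transgenic library (21.7% of 3316 genes) and none lower (21.4%), with H2-K1 at 0.99, H2-D1 at 0.58, B2m at 0.64 and H2-Q7, on 39 and 48 UMIs, at 2.43. These sums rest on few cells. The 4 highest of the 24 transgenic cells held 45.6% of the class's member UMIs, at 22015 to 32083 CPM, and the next cell had 13188. In the wild type, the highest 17 of 103 cells held 30.2%. The median cell had 5664 CPM over the members in wild type and 5861 in transgenic cells, and by medians over cells the heavy chain ratio was 0.23 and the B2m ratio 0.04. Of the 197 Cd74 UMIs of transgenic endothelial cells, 92 and 82 were in 2 of these 4 cells, and the 2 cells with the highest member levels held 6 and 0, while Ptprc had no UMI in the endothelial cells of either library, which allows up to 3.44 and 15.0 CPM (3 counts).

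**Figure D5:**
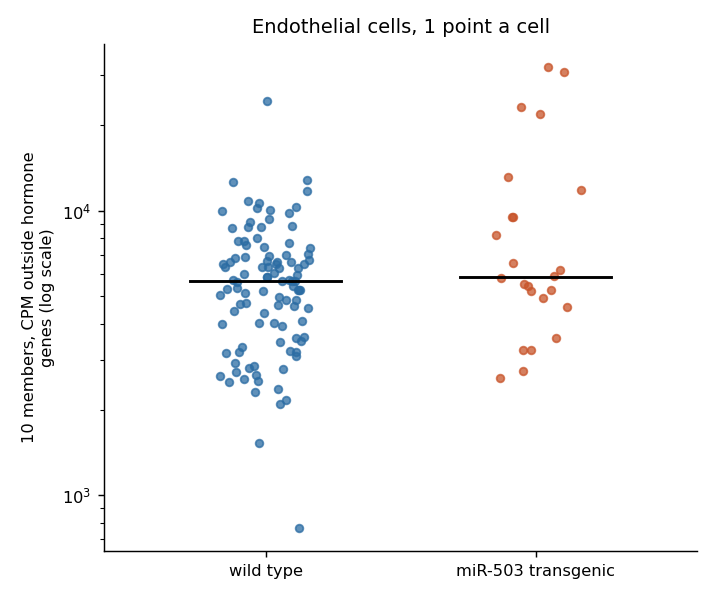
Summed level of the 10 members in single endothelial cells (log axis), with the median as a bar. The medians are 5664 and 5861 CPM, and 4 transgenic cells lie above 22000.

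In immune cells H2-Q7 (0.68, 0.39 to 0.97) and Tap2 (0.41) were higher by 5 to 4 in the transgenic library (31.8% of 4828 genes) and Tapbp (-0.36) lower (25.1%). The classes compared there were not alike in make-up. They held 65 and 40 macrophages, 20 and 54 B cells, 1 and 12 T cells, and 8 and 38 cells not placed in 1 of these. The H2-Q7 ratio was 0.48 (0.00 to 0.94) in macrophages and -0.18 (-0.74 to 0.41) in B cells. Of the 346 transgenic H2-Q7 UMIs, macrophages held 71 and B cells 106. In macrophages 3 members were higher (21.4% of 2333 genes) and 2 lower (20.8%), and in B cells 1 was higher (21.3% of 2069) and 1 lower (21.7%).

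The surrounding pathway was read from lists of related genes. Of the 11 other heavy chain genes present in the table, 5 had enough UMIs in beta cells. Mr1, which presents vitamin B metabolites, went from 5.13 to 2.45 CPM (-1.07, -1.49 to -0.66) and H2-Q10 from 2.06 to 1.26. These 2 were lower by 5 to 4, beside 12.6% of all genes, and none was higher, beside 13.1%. H2-Q2 had an endocrine pattern unlike any member's, at 84.1 and 91.8 in beta and 90.7 and 108 in alpha cells against 4.58 and 5.01 in endothelial cells (4 and 1 UMIs). H2-T22 (1744 and 1459 UMIs in beta cells) and H2-M3 (15.0 and 17.7 CPM) had log2 ratios of 0.03 and 0.24.

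Of the 9 genes of peptide supply, none differed by 5 to 4 in beta cells in either direction, and 4 were 2-fold or more higher in endothelial and 4 in immune cells than in beta cells (12.9% and 10.3% of all genes). Psmb8, an immunoproteasome subunit, was at 31.3 and 28.4 in beta and 343 and 536 in immune cells. The proteasome activator subunits Psme1 (67.7 and 60.5) and Psme2 (133 and 123) and the peptidase Nrd1 (104 and 90.9) were slightly lower in transgenic beta cells, at -0.16, -0.12 and -0.19. Of the 6 genes of assembly in the endoplasmic reticulum, 5 were 2-fold or more lower in endothelial than in beta cells (31.3% of all genes), 3 in immune (43.5%), 2 in alpha (13.7%), and 1 each in delta (8.93%) and gamma cells (7.08%). Calr, a chaperone of the loading complex, was at 1727 and 1549 in beta cells and 415 and 616 in endothelial cells, Canx at 513 and 489 against 205 and 240, and Pdia3 at 659 and 688 against 315 and 251. Hspa5 was at 3601 and 3806 in beta cells.

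Among 16 regulators tested in beta cells, 3 were lower and 2 higher (12.6% and 13.1% of all genes). Irf1 (127 and 128 CPM), Irf2 (55.9 and 55.4) and Nfkb1 (126 and 124) were level, and Rela was at -0.20. In alpha cells 5 of 14 were higher and 1 lower (13.5% and 12.2%), with Nfkb1 going from 102 to 179 (0.82, 0.66 to 0.97) and Irf1 from 49.6 to 71.2 (0.52, 0.29 to 0.75).

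The direction of the interferon-induced genes differed between classes, and in beta cells they moved both ways. Of 18 tested in beta cells 8 were lower and 4 higher in the transgenic library (12.6% and 13.1% of all genes), and of 16 in alpha cells 8 were lower and 1 higher (12.2% and 13.5%). Of 19 in immune cells 10 were lower and 3 higher (25.1% and 31.8%). Of 18 in endothelial cells, with few transgenic cells, 1 was lower and 9 higher (21.4% and 21.7%). Ifit1 went from 82.0 to 34.8 CPM in beta cells (-1.24) and from 87.0 to 50.7 in alpha cells (-0.78), and Rsad2 from 121 to 63.1 (-0.94) and from 51.4 to 30.4 (-0.76). Ifitm2 was higher in beta cells (0.58) and Ifitm3 was at -0.11. Ifit1 and Rsad2 were thus lower in transgenic alpha cells, in which the class I sums were higher. In immune cells Rsad2 was at 1913 and 297 CPM, and the part of immune RNA in the endocrine values of Rsad2 was not tested. Across classes, 19 of the 20 interferon-induced genes were 2-fold or more higher than in beta cells in endothelial cells, and 19 in immune cells (12.9% and 10.3% of all genes). The class II genes H2-Aa (36.8 and 70.4), H2-Ab1 (45.4 and 93.4) and H2-Eb1 (29.3 and 51.2 CPM in beta cells) had 5008 to 9647 CPM in immune cells.

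Over the 12 sums of 6 classes in 2 libraries, each member had a Pearson correlation with the mean member profile between 0.87 (H2-Q4) and 0.98 (B2m). Each member is itself part of that mean, which raises these values. Between pairs of members the correlation ran from 0.70 (H2-K1 and H2-Q4) to 0.98 (H2-D1 and B2m). The 12 sums share libraries and depth. Of 11659 genes, the 5 outside the members with the most similar profile were Arpc1b (0.98), Bloc1s1 (0.98), Bst2 (0.97), Mdfic (0.97) and Gngt2 (0.97). Bst2, an interferon-induced gene that encodes tetherin, was at 10.2 and 8.19 CPM in beta cells and 580 and 305 in immune cells.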

How the data were processed

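The submitters' processing notes name mm10, STAR 2.5.1b and Cell Ranger 2.1.0, with no annotation release. The deposited values are raw counts of UMIs per gene and cell, not normalised by the authors. Cells were kept with at least 500 genes, 1000 UMIs and at most 10% mitochondrial UMIs, which removed 20 and 15 barcodes. Scrublet in scanpy 1.11.5 marked 0.111% and 0.0965% of cells by its own threshold, and the 4% of cells with the highest scores (181 and 166) were dropped instead. Endothelial cells needed UMIs of 8 of 12 markers and immune cells of 4 of 8; macrophages needed 6 of 10, B cells 3 of 6 and T cells 3 of 7. Endocrine cells had to pass exactly 1 hormone threshold and hold fewer than 4 immune and 4 endothelial markers. This left out 232 and 356 cells past several thresholds, 28 and 50 with such markers and 124 and 45 of no class. The marker numbers were set after the marker counts, not the members' values, were seen.

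For each class and library, UMIs were added up across cells. Levels carry exact Poisson, ratios exact conditional binomial and shares exact Clopper-Pearson 95% intervals. Genes with at least 50 UMIs over both sums were compared at a ratio of 5 to 4, or 2-fold between classes. The ratio code was tested on simulated data. TMM factors came from edgeR 4.0.16 in R 4.3.3 and are an alternative, since they do not place classes on 1 scale. The members, lists and thresholds were chosen with earlier results of these data known. Named are all members, up to 4 genes with the most UMIs of each list, and the 5 most similar profiles; H2-Q10 was named after its value was seen. Scripts used scipy 1.17.1, pandas 2.3.3, numpy 2.4.6 and matplotlib 3.10.9 under Python 3.11.15.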

Additional observations from a re-analysis of the deposited data

Results flagged for a closer look

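The 6 members flagged had log2 ratios of transgenic to wild type with opposite signs in beta cells and in another class. Both counting intervals were clear of 0. The flags do not cover every such case. B2m was at 0.25 (0.19 to 0.31) in beta cells and -0.069 (-0.12 to -0.016) in immune cells. H2-K1, lower in beta cells, was at 0.27 (0.15 to 0.39) in immune cells and 0.31 (0.14 to 0.48) in macrophages. These smaller ratios were not flagged. No share of all genes with opposite signs is given. The difference between classes was not tested, and every ratio compares the same 2 libraries. H2-Q4 was at -0.53 in beta cells and at 0.36 in alpha and 0.78 in endothelial cells. Tapbp was at -0.26 in beta cells, 0.43 in alpha cells and 0.50 in gamma cells. The other flags set beta against endothelial cells: H2-K1 (-0.26 and 0.99), H2-Q6 (-0.71 and 2.07), H2-T23 (-0.13 and 0.72) and Tap2 (-0.17 and 0.68). The endothelial values include the 4 transgenic cells that held 45.6% of that class's member UMIs.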

How the results depend on the processing

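No paired analysis was possible because each genotype has 1 library, and for the same reason no replicate was left out. Counting precision limits delta, gamma and transgenic endothelial cells most.

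Scaling mattered most. On a scale over all UMIs the beta heavy chain ratio was -0.50, the loading ratio -0.55 and the B2m ratio turned to -0.072, with 8 members past the fold lower. Against beta cells on that scale, heavy chains stood at 0.66 and 1.31 in alpha, 1.53 in transgenic delta and 0.39 in wild type gamma cells, and B2m at 0.56 and 0.97 in alpha, 0.78 and 1.18 in delta and 0.31 in transgenic gamma cells. By the mean over cells, B2m in wild type delta against beta cells was 0.035. The beta heavy chain ratio was -0.21 both at 5% mitochondrial UMIs and with doubled hormone thresholds, where B2m was 0.15. Subtracting B2m at the immune and endothelial ratios gave 0.11 in beta cells, and the median over cells gave 0.21 for B2m in alpha and turned the immune heavy chain ratio to -0.085; these alternatives were chosen after seeing the data. The alpha heavy chain ratio was 0.12 with cells past 2 hormone thresholds kept and 0.24 in cells with a Y-linked and no Xist UMI. In alpha cells 2 members were lower and 3 higher with cells past 2 thresholds kept, 2 were higher without cells holding immune or endothelial UMIs, and 0 lower and 3 higher at a minimum of 200 UMIs. At 1.5-fold, 1 member was lower in beta and 1 higher in alpha cells. No share of all genes is given for these counts or for the 8 members over all UMIs. They therefore have no background to be read against. TMM factors gave -0.19 and 0.24 for the beta heavy chain and B2m ratios. The cause of these shifts was not tested.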
